A study of Bos taurus with 29 samples.

Results

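ISG15, RSAD2, MX1 and MX2 are interferon-stimulated genes, and their messenger RNA was measured in the ARC (arcuate nucleus of the basal hypothalamus, which holds neurons that govern appetite) of 29 heifer calves. The 4 genes were taken by Ensembl identifier (ENSBTAG00000014707, ENSBTAG00000016061, ENSBTAG00000030913 and ENSBTAG00000008471) out of 24596 genes, by a rule on identifiers alone. All 4 were among the 14165 genes that had a value above 1 in at least 14 libraries and were tested between diets. The calves were Angus crossed with Holstein-Friesian and were on a high (HI, n = 14) or a moderate (MOD, n = 15) plane of nutrition. Milk replacer was offered daily at 1.5 kg (10 litres) in HI and 0.5 kg (4 litres) in MOD. Concentrates were unrestricted in HI and limited in MOD, and daily gains of 1.2 kg and 0.5 kg were targeted. Both diets ran through a calf phase of 8 weeks and 11 weeks after weaning, and tissue was taken at 21 weeks of age. Each calf gave 1 library of polyadenylated RNA, named here by diet and a replicate number, and the libraries held 11040026 to 20255414 reads.

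Type I interferons are secreted when a cell senses viral nucleic acid, and they signal through a receptor and the JAK and STAT proteins to switch on a shared set of antiviral genes. ISG15 encodes a ubiquitin-like protein that is conjugated to other proteins and is also secreted. RSAD2 encodes viperin, an enzyme that makes a nucleotide which stops viral RNA synthesis. MX1 and MX2 encode dynamin-like GTPases that block incoming viruses, and cattle are known to respond to interferon with both. In the brain these genes are known to respond in neurons, glia and the cells of blood vessels. MX1 and MX2 are paralogues, and in the RefSeq annotation of the ARS-UCD2.0 assembly 0 genes lie between them. Reads that map to both places are not counted for either gene in per-gene counting of uniquely mapped reads, and how many such reads there were was not examined. The deposited table gives identifiers without names or positions, and RSAD2 and MX2 bear the names that came with the identifiers by which they were chosen.

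In these calves the 4 genes differed widely between animals, while none of the 4 differed between the diets beyond the spread between calves. They varied together across MOD calves, and ISG15, RSAD2 and MX1 did so across HI calves, where MX2 passed the test with them once HI 9 was left out. The highest library held 27.2 times the lowest for ISG15, 17.3 times for RSAD2, 17.5 times for MX1 and 13.1 times for MX2. Values are reads per 1000000 reads of effective library size. Libraries HI 9 and HI 13 stood apart from the rest, and the values without them are given beside the main results. On the first principal component of the tested genes HI 9 scored -124.5 and HI 13 scored -62.9, against -14.1 to 25.5 in the other 27 libraries. In whole tissue, a change in the number of cells that express a gene and a change in RNA per cell cannot be told apart.

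ISG15 ranged in HI calves from 2.92 in HI 2 to 65.06 in HI 9 with a median of 7.07, and in MOD calves from 2.39 in MOD 8 to 33.43 in MOD 6 with a median of 6.36. HI 9 and HI 13, at 65.06 and 55.71, were 1.95 and 1.67 times the next library, MOD 6. The remaining 12 HI calves reached 18.31 at most, in HI 6, and lay within the MOD range. The means were 14.8 ± 19.8 (SD, n = 14) in HI and 9.22 ± 8.71 (SD, n = 15) in MOD. The HI mean was 7.16 ± 4.04 (SD, n = 12) without HI 9 and HI 13. With scaling by library size alone HI 13 was at 53.82, HI 9 at 52.26 and the highest other library at 33.13, so the order of HI 9 and HI 13 depended on the scaling and their place above the rest did not.

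RSAD2 ranged in HI calves from 1.60 in HI 14 to 11.86 in HI 6 with a median of 3.29, and in MOD calves from 0.68 in MOD 1 to 11.41 in MOD 6 with a median of 2.64. In HI calves, 4 libraries (HI 6, HI 12, HI 9 and HI 13) lay between 9.90 and 11.86, and the others were at 5.30 or less. In MOD calves, MOD 6 stood alone at 11.41, followed by MOD 14 at 6.50. The means were 5.13 ± 3.86 (SD, n = 14) in HI and 3.56 ± 2.74 (SD, n = 15) in MOD, and the HI mean was 4.32 ± 3.55 (SD, n = 12) with HI 9 and HI 13 left out. The lowest value, in MOD 1, rested on 10 reads, and the highest read number was 229.

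MX1 ranged in HI calves from 19.58 in HI 1 to 342.28 in HI 13 with a median of 57.1, and in MOD calves from 22.52 in MOD 9 to 165.17 in MOD 6 with a median of 62.8. HI 13 and HI 9 were again the top pair, at 2.07 and 1.64 times MOD 6. HI 6, at 164.07, was close to MOD 6, and the other HI calves were at 95.73 or less. The means were 97.5 ± 97.1 (SD, n = 14) in HI and 71.6 ± 46 (SD, n = 15) in MOD. The HI mean was 62.6 ± 40.4 (SD, n = 12), below that of MOD, when HI 9 and HI 13 were left out.

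MX2 ranged in HI calves from 2.48 in HI 9 to 17.45 in HI 6 with a median of 6.35, and in MOD calves from 2.07 in MOD 8 to 27.11 in MOD 6 with a median of 4.92. HI 9, among the top pair for ISG15 and MX1, held the least MX2 of the HI group and ranked 28 of all 29 from the top. HI 13 was at 11.83, ranked 8. The means were 7.69 ± 4.46 (SD, n = 14) in HI and 8.05 ± 6.79 (SD, n = 15) in MOD, and the HI mean was 7.78 ± 4.41 (SD, n = 12) with HI 9 and HI 13 left out.

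**Figure D1:**
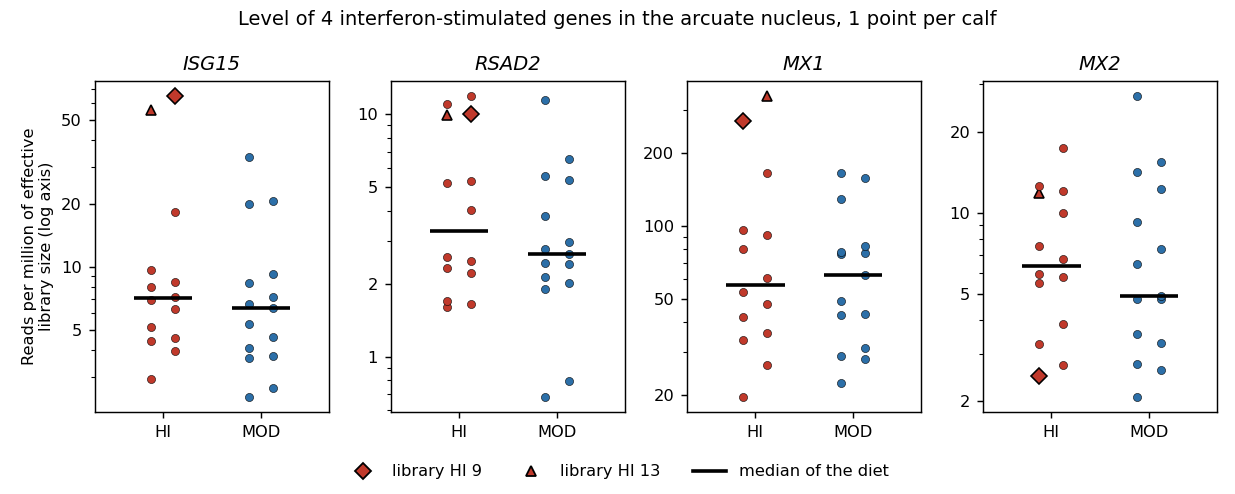
Level of ISG15, RSAD2, MX1 and MX2 in HI and MOD calves, in reads per 1000000 reads of effective library size on a log axis, with 1 point per calf and a line at the median of each diet. HI 9 (diamond) and HI 13 (triangle) lie above all other libraries for ISG15 and MX1, while HI 9 is the lowest HI library for MX2, and the diets overlap for every gene.

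The libraries with the highest levels were shared in part between the 4 genes, and more so among ISG15, RSAD2 and MX1. MOD 6 was among the top 5 of the 29 libraries for all 4 genes. HI 6, MOD 6 and MOD 14 were among the top 7 for all 4, and HI 9 and HI 13 joined them in the top 7 of ISG15, RSAD2 and MX1. At the other end, MOD 12 was among the lowest 7 for each gene. No HI calf was among the lowest 7 for all 4.

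The spread between calves was large beside that of other genes and beside counting error. The SD of log2(value + 1) within diets was 1.11 for ISG15, 0.82 for RSAD2, 1.05 for MX1 and 0.85 for MX2, while the median over the 14165 tested genes was 0.31. A larger SD was found in 0.89% of tested genes for ISG15, 3.01% for RSAD2, 1.07% for MX1 and 2.51% for MX2. When HI 9 and HI 13 were left out, the SDs were 0.83, 0.78, 0.88 and 0.84 in the same order, against a median of 0.23. On values without a log, counting error accounted for 0.36% of the variance of ISG15 within diets, 2.67% of that of RSAD2, 0.103% of that of MX1 and 1.59% of that of MX2. Without HI 9 and HI 13 these shares were 1.12%, 2.71%, 0.242% and 1.55% in the same order.

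In MOD calves all 6 pairs of genes were correlated across the 15 animals. Correlations were computed on log2(value + 1) with two-sided permutation tests, and p-values were adjusted by the Benjamini-Hochberg method over 12 relations, 6 in each diet. ISG15 and MX1 had r = 0.91 (rho = 0.90, permutation p = 2e-05, adjusted p = 0.00012). ISG15 and MX2 had r = 0.88 (rho = 0.84, permutation p = 1e-05, the smallest that 100000 resamples can give, adjusted p = 0.00012). MX1 and MX2 had r = 0.86 (rho = 0.84, permutation p = 6e-05, adjusted p = 0.00018). The 3 pairs with RSAD2 were somewhat lower, at r = 0.81 with MX2 (rho = 0.76, permutation p = 0.0002, adjusted p = 0.0004), 0.75 with MX1 (rho = 0.75, permutation p = 0.00109, adjusted p = 0.00163) and 0.72 with ISG15 (rho = 0.70, permutation p = 0.00232, adjusted p = 0.00309). Without the 2 calves farthest from the median of the first gene of each pair, MOD 6 and 1 other, r ranged from 0.58 for ISG15 and RSAD2 to 0.88 for ISG15 and MX1.

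In HI calves the 3 pairs among ISG15, RSAD2 and MX1 were correlated and the 3 pairs with MX2 did not pass the test. ISG15 and MX1 had r = 0.91 (rho = 0.88, permutation p = 3e-05, adjusted p = 0.00012). RSAD2 had r = 0.86 with MX1 (rho = 0.80, permutation p = 0.0001, adjusted p = 0.00024) and r = 0.78 with ISG15 (rho = 0.82, permutation p = 0.00036, adjusted p = 0.000617). MX2 had r = 0.21 with ISG15 (rho = 0.49, permutation p = 0.47, adjusted p = 0.47), 0.46 with RSAD2 (rho = 0.48, permutation p = 0.099, adjusted p = 0.119) and 0.37 with MX1 (rho = 0.43, permutation p = 0.195, adjusted p = 0.213).

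The low values for MX2 in HI calves turned on HI 9. Without HI 9 alone, MX2 had r = 0.70 with ISG15, 0.74 with RSAD2 and 0.73 with MX1. Leaving out both HI 9 and HI 13 (n = 12) gave r = 0.85 with ISG15 (rho = 0.87, permutation p = 0.00026, adjusted p = 0.000624), 0.71 with RSAD2 (rho = 0.66, permutation p = 0.00923, adjusted p = 0.00923) and 0.76 with MX1 (rho = 0.71, permutation p = 0.00442, adjusted p = 0.00482). With the 2 calves farthest from the median of the first gene also left out, these were 0.94, 0.41 and 0.60, so the relation of RSAD2 and MX2 rested on few calves. The other 3 pairs had, over the 12 calves, r between 0.81 and 0.83. The 2 calves farthest from the median of the first gene were HI 9 and HI 13 for the pairs of ISG15 and of MX1, and r between ISG15 and MX1 was 0.82 without them. For RSAD2 they were HI 6 and HI 12, and without those r was 0.91 with MX1 and 0.17 with MX2.

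No pair was shown to differ in its correlation between diets. The difference in Fisher z, HI minus MOD, was -1.17 for ISG15 and MX2 (permutation p = 0.0892, adjusted p = 0.348 over 6 pairs), -0.90 for MX1 and MX2 (permutation p = 0.116, adjusted p = 0.348) and -0.64 for RSAD2 and MX2 (permutation p = 0.281, adjusted p = 0.562). For the 3 pairs without MX2 it lay between 0.01 and 0.32. With HI 9 and HI 13 left out, the differences were -0.13 for ISG15 and MX2, -0.29 for MX1 and MX2, -0.25 for RSAD2 and MX2 and -0.38 for ISG15 and MX1, and no adjusted permutation p was below 0.772.

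**Figure D2:**
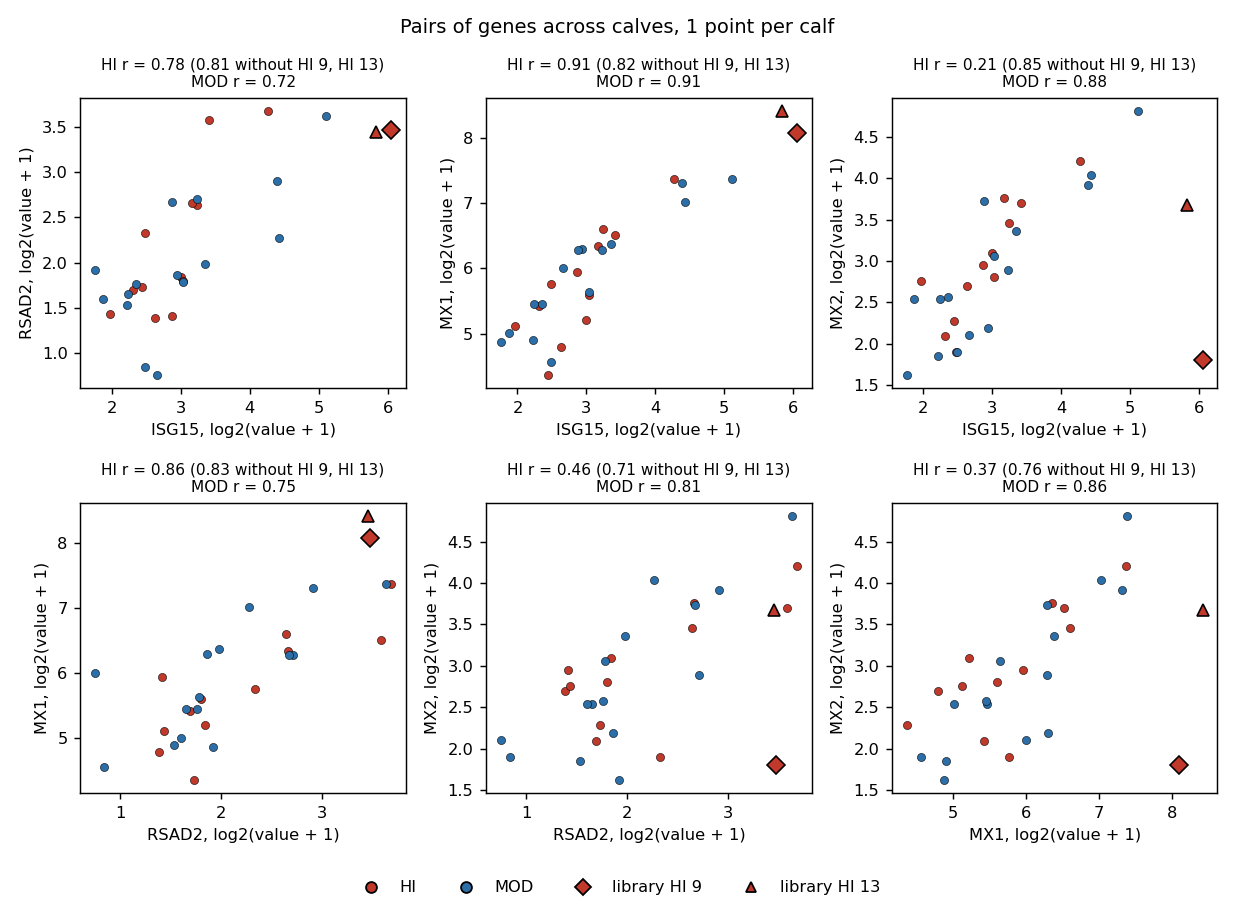
The 6 pairs of genes plotted against each other on log2(value + 1), with 1 point per calf, HI in red and MOD in blue, and Pearson's r of each diet above each panel. HI 9 lies far from the other calves in the 3 panels with MX2, where r in HI is 0.21, 0.46 and 0.37 with it and HI 13 and 0.85, 0.71 and 0.76 without them.

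Ratios between genes within a library also set HI 9 apart. MX1 divided by MX2 was 110 in HI 9 and 28.9 in HI 13, and ran from 4.77 in HI 3 to 21.9 in MOD 15 in the other 27 libraries, with a median of 8.71. ISG15 divided by MX2 was 26.3 in HI 9 and 4.71 in HI 13, against 0.507 to 1.87 in the others. Both libraries were above the range of the rest for both ratios. RSAD2 divided by MX2 was 4.06 in HI 9, above the 0.208 to 1.47 of the others, and 0.836 in HI 13, within it. For ISG15 divided by MX1 they were nearer to the rest, at 0.24 and 0.163, where the others ran from 0.0822 to 0.227. Ratios were not corrected for transcript length, and they are compared only between libraries.

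**Figure D3:**
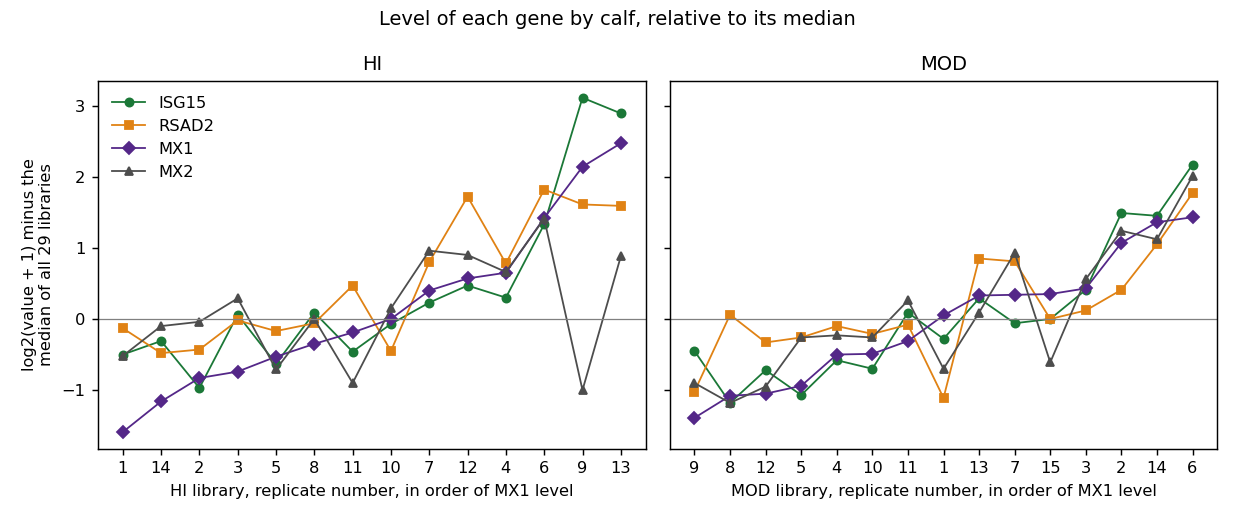
Level of each gene in each HI and MOD calf on log2(value + 1), minus the median of that gene over all 29 libraries, with calves ordered by MX1. The MX1 line climbs because MX1 sets the order. The lines of ISG15 and RSAD2 tend to climb with it in both diets and that of MX2 in MOD, with departures such as RSAD2 in MOD 1. In HI the MX2 line follows less closely (r = 0.37 with MX1), and in HI 9 MX2 falls below its median while the other 3 genes lie above theirs.

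Several marker genes of other tissues and regions, but not all, were also highest in HI 9 or HI 13. CLDN5, a tight junction gene of brain endothelium, was at 263.53 in HI 9 and 105.26 in HI 13, against 35.02 to 99.21 in the others. It was the 1 endothelial marker of 3 whose identifier was paired with a name. The sum of 2 of 3 pituitary markers was 212 in HI 9 and 1002 in HI 13. Elsewhere that sum ran from 0.433 to 84.5, so the HI range was 1.2 to 1002 and the MOD range 0.433 to 70.2. PRL, the prolactin gene, made up 201.70 in HI 9, and CGA, the common subunit of pituitary glycoprotein hormones, made up 998.18 in HI 13. The 2 markers did not go together, since CGA was at 10.58 in HI 9 (place 4) and PRL at 4.29 in HI 13 (place 26). The 4 markers of other hypothalamic nuclei (AVP, OXT, PMCH and HCRT) summed to 4488 in HI 9 and 15218 in HI 13, and to 3.95 to 5727 elsewhere. HI 9 was highest for PMCH (1859.46) and HCRT (716.82) but in place 8 for AVP and 13 for OXT. HI 13 was highest for AVP (9447.48) and OXT (5608.05) but in place 21 for PMCH and 24 for HCRT. The 2 meningeal markers summed to 9.08 in HI 9 and 36.8 in HI 13, within the 3.51 to 342 of the others, a sum led by COL15A1 at 339.58 in HI 1. ALDH1A2, the other of the pair, was at 21.18 in HI 13, against 0.18 to 3.14 in the 27 others. HBD, the 1 blood marker of 3, was at 2.03 in HI 9 and 1.31 in HI 13 against 0 to 3.61 elsewhere. Of the 4 genes listed as markers of arcuate neurons, POMC, CARTPT and NPY were read in every library and AGRP was at 0 in 4. The sum of the 4 was 89.5 in HI 9, 340 in HI 13 and 16.6 to 310 in the rest. POMC made up 213.70 of the sum in HI 13, the library with CGA at 998.18. Which cells that POMC came from was not tested. The part of other cell types in the levels of the 4 interferon-stimulated genes was not tested, and markers of microglia, lymphoid cells, astrocytes and oligodendrocytes were not examined.

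The comparison of diets asked whether the plane of nutrition in early life altered gene expression in the ARC. It was made with limma on log2(value + 1) over all 14165 tested genes. A call needed a fold change above 1.5 together with a Benjamini-Hochberg adjusted p below 0.10. Of the 4 genes 0 were called, and 0% of all tested genes were called. At an unadjusted p below 0.05, 0 of the 4 and 5.63% of all tested genes passed. On log2(value + 1) each of the 4 had a higher mean in HI, as did 50.9% of tested genes, although for MX2 the mean without a log was higher in MOD. In the 27 other libraries the mean was higher in HI for RSAD2 and MX2 and lower for ISG15 and MX1, and 52.2% of tested genes were higher.

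The difference for ISG15, HI minus MOD, was 0.34 on the log2 scale (SE 0.39, 95% interval -0.46 to 1.13, limma adjusted p = 0.725), a 1.26-fold difference on log2(value + 1), a scale that understates the change of low genes. HI exceeded the MOD median in 8 of 14 calves, and the permutation p was 0.426. Without HI 9 and HI 13 the difference was -0.10 (95% interval -0.72 to 0.53, limma adjusted p = 0.999). The sign changed when these 2 calves, the highest of all for ISG15, were left out while MOD 6, the highest MOD calf, was kept. Without MOD 6 alone the difference was 0.49.

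RSAD2 had the highest estimate of the 4, at 0.37 (SE 0.289, 95% interval -0.22 to 0.96, limma adjusted p = 0.635), or 1.29-fold. HI exceeded the MOD median in 7 of 14 calves, and the permutation p was 0.233. Over the 27 other libraries it was 0.19, and its interval of -0.40 to 0.77 also held 0.

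MX1 differed by 0.19 (SE 0.37, 95% interval -0.57 to 0.94, limma adjusted p = 0.84), or 1.14-fold. HI exceeded the MOD median in 6 of 14 calves, although the HI mean was higher, and the permutation p was 0.633. It was -0.17 over the 27 other libraries (95% interval -0.82 to 0.49, limma adjusted p = 0.999).

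MX2 differed by 0.07 (SE 0.301, 95% interval -0.55 to 0.68, limma adjusted p = 0.934), or 1.05-fold. HI exceeded the MOD median in 10 of 14 calves, yet the highest value was in MOD 6, followed by HI 6, and the permutation p was 0.835. Over the 27 other libraries it was 0.10. For each of the 4 genes the interval reached past the 1.5-fold used for calling (0.58 on the log2 scale), so a difference of that size is not shown to be absent.

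A test that gave every gene the same biological spread returned another answer for ISG15. With 1 dispersion shared by all genes, the exact test of edgeR on recovered reads called 99 genes, 0.699% of those tested, and ISG15 was among them at 0.69 on the log2 scale (adjusted p = 0.00486). RSAD2 at 0.53 (adjusted p = 0.154), MX1 at 0.46 (adjusted p = 0.241) and MX2 at -0.07 (adjusted p = 0.994) were not. The study listed ISG15, with MX1 as its target, among genes that differed between diets in the ARC of these same calves. The call of ISG15 here is therefore not independent evidence. The shared dispersion was 0.0841, while the dispersions of the single genes were 0.707 for ISG15, 0.455 for RSAD2, 0.486 for MX1 and 0.399 for MX2, values exceeded by 1.12%, 2.17%, 1.91% and 2.79% of tested genes. Without HI 9 and HI 13 the same test called 75 genes, or 0.529%, and ISG15 was at -0.37 with an adjusted p of 0.538. With dispersions of single genes the exact test called 1 gene, 0.00706% of those tested, and none of the 4, and it put ISG15 at 0.70 with an adjusted p of 0.702.

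**Figure D4:**
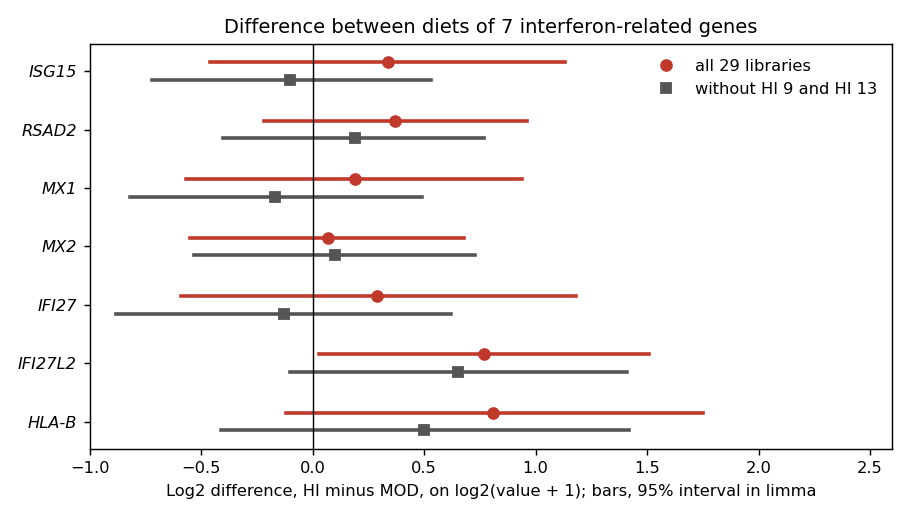
Difference between diets, HI minus MOD, in mean log2(value + 1) with its 95% interval in limma, for ISG15, RSAD2, MX1, MX2 and 3 further interferon-related genes, over all 29 libraries (red) and without HI 9 and HI 13 (grey). For the 4 genes every interval holds 0 in both sets, and ISG15, MX1 and IFI27 change sign between them.

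Of a list of 66 other genes of the interferon pathway, from receptors and sensors to effectors, 3 could be located by a named identifier, and 0 of the 3 were called in limma. IFI27 and IFI27L2 encode small interferon-induced membrane proteins. IFI27 ran from 2.21 to 93.87 and was highest in HI 9, with HI 13 next at 41.87 and 25.34 the most elsewhere. Its difference was 0.29 (limma adjusted p = 0.784), and -0.13 without HI 9 and HI 13. IFI27L2 ran from 0.46 in MOD 12 to 51.25 in HI 9, with HI 13 at 13.77 near the median of the others, 13.7. Its difference was 0.77 (SE 0.361, unadjusted limma p = 0.0411, adjusted p = 0.63), and 0.65 without the 2 libraries. The gene named HLA-B, of the class I antigen presentation family, ran from 0.47 to 51.49 and was highest in HI 13. It differed by 0.81 (SE 0.457, limma adjusted p = 0.63), and by 0.50 without the 2 libraries. Class I genes are many and vary between animals, so its reads may be split among near copies and its level is uncertain. With 1 shared dispersion the exact test called all 3 with all libraries (adjusted p = 0.0025, 0.0248 and 2.35e-06) and none of them without HI 9 and HI 13. The identifiers of these 3 genes came from tables of genes that the study had selected on these same samples, so these calls are not independent evidence.

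ISG15, RSAD2 and MX1 were near the top of the correlates of each other, and MX2 was so for ISG15 and MX1 only without HI 9 and HI 13. Among the correlates of MX2 itself, ISG15, RSAD2 and MX1 were near the top with all libraries. Genes were ranked by Pearson's r over the 29 libraries after the mean of each diet had been subtracted, as a description across libraries that share HI 9 and HI 13. Of 14164 genes MX1 was in place 5 for ISG15 (r = 0.91), and ISG15 was in place 5 for MX1. For RSAD2, MX1 was in place 14 (r = 0.81), ISG15 in place 25 (r = 0.76) and MX2 in place 67 (r = 0.64). MX2 was in place 1602 for ISG15 (r = 0.54), and in place 7 (r = 0.87) without HI 9 and HI 13. For MX1 it was in place 350 (r = 0.59), and in place 18 (r = 0.82) without them. In the other direction, for MX2 over all libraries, RSAD2 was in place 33, MX1 in place 49 and ISG15 in place 76. Each had an r above 0.46, which marked the 99th percentile of all genes for MX2. An r of 0.71 marked the 99th percentile of all genes for ISG15 over all libraries and 0.50 without the 2, so the bar that other genes set was lower without them.

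Genes whose pattern was most like that of the 4 were ranked by r with the mean of their standardized levels, out of 14161 other genes. ENSBTAG00000030932 was nearest (r = 0.95) and ENSBTAG00000016661 was next (r = 0.94). ENSBTAG00000030932 had a median of 4.78 in HI and 4.24 in MOD, and ENSBTAG00000016661 had a median of 3.27 in HI and 3.83 in MOD. Both were highest in HI 13 of the HI calves and in MOD 6 of the MOD calves. An r of at least 0.9 was found for 11 genes and of at least 0.8 for 39. With HI 9 and HI 13 left out ENSBTAG00000016661 kept place 2 and another gene was nearest. Of the 50 most alike genes, 42 were also among the 50 most alike without HI 9 and HI 13. IFI27 was in place 48 (r = 0.77), HLA-B in place 101 (r = 0.60) and IFI27L2 in place 1494 (r = 0.38). The 4 genes themselves had r between 0.78 and 0.94 with their own mean. Each is a part of that mean, which raises its r, so these values are not comparable with those of other genes.

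The levels were also set beside the total reads of the library. Within diets r with total reads was 0.43 for ISG15 (rho = 0.21, permutation p = 0.0225), 0.42 for RSAD2 (rho = 0.33, permutation p = 0.0225), 0.34 for MX1 (rho = 0.29, permutation p = 0.0682) and 0.29 for MX2 (rho = 0.09, permutation p = 0.125). The adjusted p-values of these 4 relations ran from 0.072 to 0.167, with adjustment over 8 relations with library properties. MOD 6, the highest MOD library for each of the 4 genes, was also the most deeply sequenced of all libraries. Without it and MOD 15, the shallowest, r was 0.32, 0.28, 0.31 and -0.02 in the same order. With HI 9 and HI 13 left out instead it was 0.35, 0.36, 0.25 and 0.38. The other relations were with the second principal component of the tested genes. Relations with the first component, on which HI 9 and HI 13 stood apart, were not examined. There r was 0.34 for ISG15, 0.18 for RSAD2, 0.41 for MX1 and 0.19 for MX2, with adjusted permutation p from 0.072 for MX1 to 0.358 for RSAD2. Without HI 9 and HI 13 these r were 0.10, 0.02, 0.22 and 0.22.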

How the data were processed

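RNA sequencing was carried out on the ARC of 29 heifer calves, with 1 library per calf (HI, n = 14 and MOD, n = 15). The authors checked reads, trimmed adapters, aligned to UMD3.1, counted reads by gene, and applied trimmed mean of M-values normalization. The submitters' processing notes name FastQC 0.11.8, cutadapt 2.6, STAR 2.6.1, R 3.4 and edgeR 3.5, and the methods of the study give other versions of FastQC, STAR and edgeR. The deposited signal was read counts divided by effective library size and multiplied by 1000000. Of its nonzero values 100.0% were whole multiples (within 0.01 read) of the value of 1 read, and reads were recovered from this. The libraries held 11040026 to 20255414 reads with a median of 14514318. Read counts of 196 same-diet pairs differed by a chi-square of at least 8.55 per degree of freedom, so each library was counted as 1 replicate. Calves were the replicates. The study blocked calves in its allocation to diets, and the blocks were not used here.

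The 14165 of 24596 genes whose value exceeded 1 in 14 or more libraries were tested on log2(value + 1) with limma 3.58.1 in R 4.3.3 (eBayes with trend), with Benjamini-Hochberg adjustment over all tested genes. The study used an exact test on counts. It was run on the recovered reads with edgeR 4.0.16 as an alternative, beside the edgeR quasi-likelihood test, DESeq2 1.42.0 and limma-voom with quality weights. Permutation tests were two-sided with 100000 resamples (Python 3.11.15, numpy 2.4.6). Scripts were tested on simulated data. The members, the gene lists and the tests were chosen with earlier results of these data known. Named genes were the 4 members, the interferon list where an identifier was paired with a name in the tables of the study (only the names were used), and the genes most like the members. Of the 24596 identifiers 0 matched the RefSeq table. Protein, promoter and genome sequences were not used here.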

Additional observations from a re-analysis of the deposited data

How the results depend on the processing

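Over 42 alternatives for the 12 correlations (other than leaving out 1 calf), 38 kept their direction and side of the threshold. In HI calves r between RSAD2 and MX2 was 0.62 on values without a log and 0.71 without HI 9 and HI 13, and without those 2 calves r was 0.85 for ISG15 with MX2 and 0.76 for MX1 with MX2, all past the threshold. Leaving out each HI calf in turn gave r from 0.06 to 0.70 for ISG15 with MX2, 0.32 to 0.74 for RSAD2 with MX2 and 0.26 to 0.73 for MX1 with MX2, each highest without HI 9. In MOD calves r between ISG15 and RSAD2 was lowest, at 0.57, without MOD 6. The number of genes called was 0 in limma and in each fit without 1 calf, 1 in the exact test with single-gene dispersions, 1 in DESeq2, 99 with 1 shared dispersion, and 75 in that test without HI 9 and HI 13 (added after seeing the data). ISG15 was at 0.69 with 1 shared dispersion and in the quasi-likelihood test. It was at 0.70 in the exact test with single-gene dispersions and 0.20 in DESeq2, and was called in the first setting only. In limma-voom with quality weights it was at -0.09. Without HI 9 and HI 13 it was at -0.10 in limma and by permutation, and at -0.37 with 1 shared dispersion. MX1 was at -0.15, -0.17 and -0.20 in the last 3 of these settings. MX2 was at -0.07 in the quasi-likelihood test, with 1 shared dispersion and in DESeq2, at -0.06 in the exact test with single-gene dispersions and with 1 shared dispersion without HI 9 and HI 13, and at -0.36 on values without a log. Leaving out 1 calf gave 0.13 to 0.49 for ISG15, 0.27 to 0.49 for RSAD2, 0.01 to 0.32 for MX1 and -0.03 to 0.21 for MX2. RSAD2 kept its direction in every alternative run, and it was not tested under a filter of values above 5. The cause of these changes was not tested. No paired analysis was possible because the labels give no pairing of calves across diets. A replicate number that occurs in both HI and MOD does not mark a pair.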

Other observations

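The neuropeptide genes listed as markers of arcuate neurons were set beside the mean of the standardized levels of the 4 interferon-stimulated genes. Over the 29 libraries, within diets, r with that mean was 0.40 for POMC, which encodes the precursor of an appetite-lowering peptide, and 0.26 for CARTPT, often expressed in the same neurons. It was 0.26 for AGRP and 0.22 for NPY, both of neurons that raise appetite. Without HI 9 and HI 13 the values were 0.22 for POMC, 0.26 for CARTPT, 0.18 for AGRP and 0.12 for NPY. Peptide genes of other hypothalamic nuclei had 0.20 for PMCH, 0.16 for AVP, 0.12 for OXT and -0.06 for HCRT, and without HI 9 and HI 13 these were 0.18, -0.02, -0.03 and -0.10. CLDN5 had 0.43 over all libraries and 0.27 without the 2. These values are descriptions across libraries with no test.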
